A study of Homo sapiens with 9 samples.

Results

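The NR2F, MEIS and PBX factors are 8 transcription factor genes, NR2F1, NR2F2, NR2F6, MEIS1, MEIS2, MEIS3, PBX2 and PBX3, taken by symbol from the 18970 gene symbols that both count tables list. They were followed by SLAM-seq in cranial neural crest cells (CNCCs) made in culture from the human embryonic stem cell line H9. Both alleles of SOX9 carried an FKBP12-F36V, mNeonGreen and V5 tag in every sample, the controls included, and dTAGV-1 directs the tagged protein to degradation. The 9 samples made up 3 groups of 3. The 3h and 24h groups received 500 nM dTAGV-1 for those times. The 0h group is taken here as the DMSO vehicle control that the protocol describes, although its labels also carry the 500 nM concentration, with a treatment time of 0 h. The labels put relative SOX9 at 100% in this group and at 0% in the others. All 3 cultures, S9CC13_R6, S9CC47_R5 and S9CC47_R6, were sampled at every time. Their names combine 2 tagged clones with 2 batches of differentiation, and all trace back to 1 embryonic line. New RNA was labelled with 100 uM 4-thiouridine for 2 h, starting 1 h or 22 h after dTAGV-1, and labelled molecules are read as T>C conversions in sequencing from the 3′ end. No member passed the test in T>C reads at 3h or at 24h, and in total reads 1 of 7 tested members, PBX2, rose at 24h, where 15.0% of all genes tested were called. The PBX2 call was not made by edgeR, which called 7.97% of genes, or with any culture left out, where 0.484% to 6.22% were called. With the culture as a block in DESeq2 the call held. Other fits also called members in T>C reads. PBX2 was called at 24h by edgeR (4.25% of genes called), with that block (6%) and without the surrogate variable (5.12%). NR2F1 was called lower at 3h with size factors from total reads (1.92%).

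NR2F1, NR2F2 (also called COUP-TFI and COUP-TFII) and NR2F6 are orphan nuclear receptors that bind direct repeats of AGGTCA and act on transcription as repressors or activators. In the cranial neural crest, NR2F1 and NR2F2 occupy many of the enhancers that are active there. MEIS and PBX proteins are homeodomain proteins of the TALE class, which bind DNA together as heterodimers, in part with HOX proteins. PBX factors and MEIS2 are needed for normal development of the face.

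Library depth ranged from 16955633 to 28782678 total reads (median 21356401) and from 3130673 to 5475800 T>C reads, and 15.9% to 21.3% of a library's reads carried a T>C conversion. SOX9, whose last exon overlaps antisense lncRNAs, rose in normalized T>C reads (counts divided by DESeq2 size factors) from a mean of 9789 ± 258 (SD, n = 3) at 0h to 16838 ± 1687 at 3h and 21449 ± 1885 at 24h (log2 fold change 1.15, SE 0.0843, DESeq2 adjusted p = 7.28e-39 at 24h). Of 12 cranial neural crest markers, 11 passed the filter on low counts, with SOX10 below it. The summed total reads of the 12 came to 2118 to 2193 CPM (counts scaled by the library total) at 0h, 2638 to 2733 CPM at 3h and 3295 to 3669 CPM at 24h. MSX1 rose most, from a mean of 13668 normalized total reads at 0h to 21986 at 3h and 31011 at 24h. In total reads at 3h 3 of the 11 were called higher and 1, SNAI2, lower (log2 -0.50, DESeq2 adjusted p = 0.0937). Over all genes tested 1.11% were called higher and 0.777% lower. In T>C reads 8 of the 11 were called higher at 24h (DESeq2 adjusted p under 0.1), among them TFAP2A, TWIST1, MSX1 and PAX3. Over all genes tested 2.38% were called higher. Pluripotency markers summed to 350.0 to 414.0 CPM at 0h and 282.0 to 306.0 CPM at 24h, nearly all from LIN28A and DPPA4, while POU5F1 was listed at a mean of 0 normalized T>C reads. Neural markers summed to 12.6 to 18.1 CPM at 0h and 8.96 to 11.7 CPM at 24h, mostly from DCX. Chondrocyte markers summed to 30.8 to 40.2 CPM and 20.9 to 24.3 CPM, nearly all from COL9A1. Muscle and endothelial markers summed to at most 0.311 CPM in any sample. The part of these marker shifts in the values of the NR2F, MEIS and PBX factors was not tested. In bulk libraries, fewer cells of a type and less RNA per cell cannot be told apart.

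The promoter sequences of PBX2, the member that rose, of PBX3, its relative that was not called, of NR2F1, the member with the lowest fold change at 3h, and of MEIS3, whose base composition is the reverse of PBX2's, are shown to set their start sites side by side. RefSeq (GRCh38.p14) gave promoters for 7 of the 8 members. Each line holds the 250 bases before the RefSeq start site, 5′ to 3′ on the strand of the gene, with capitals at matches to one of the motifs named after them. The windows are chr6:32190203-32190452 (PBX2, minus strand), chr9:125747933-125748182 (PBX3, plus strand), chr5:93582972-93583221 (NR2F1, plus strand) and chr19:47422234-47422483 (MEIS3, minus strand).

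PBX2: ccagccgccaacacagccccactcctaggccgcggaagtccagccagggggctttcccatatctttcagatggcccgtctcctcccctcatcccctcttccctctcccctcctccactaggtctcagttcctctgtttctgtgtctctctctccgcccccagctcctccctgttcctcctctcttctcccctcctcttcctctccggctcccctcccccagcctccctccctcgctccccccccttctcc
PBX3: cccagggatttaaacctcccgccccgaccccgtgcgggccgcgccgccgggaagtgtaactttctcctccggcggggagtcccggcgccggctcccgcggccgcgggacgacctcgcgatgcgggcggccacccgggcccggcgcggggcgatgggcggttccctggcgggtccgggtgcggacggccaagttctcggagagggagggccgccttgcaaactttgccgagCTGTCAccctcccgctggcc
NR2F1: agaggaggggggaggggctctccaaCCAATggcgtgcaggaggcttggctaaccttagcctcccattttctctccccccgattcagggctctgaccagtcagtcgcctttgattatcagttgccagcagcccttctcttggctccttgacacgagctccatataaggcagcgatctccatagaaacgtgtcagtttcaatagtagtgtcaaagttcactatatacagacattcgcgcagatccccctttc
MEIS3: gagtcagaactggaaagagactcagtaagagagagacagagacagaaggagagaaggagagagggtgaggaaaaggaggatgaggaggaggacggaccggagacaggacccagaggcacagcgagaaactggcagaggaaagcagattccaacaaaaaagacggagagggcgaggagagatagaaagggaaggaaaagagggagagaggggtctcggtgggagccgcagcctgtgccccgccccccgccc

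The PBX2 promoter was a pyrimidine tract. C and T made up 78.8% of its 250 bases, more than in 99.9% of 14609 promoters of protein-coding genes. The MEIS3 window was the mirror image, with 76.4% A and G on the strand of the gene, and 0.123% of promoters held fewer pyrimidines. PBX3 (51.6% C and T) and NR2F1 (54.8%) were less extreme, above 59.3% and 76.7% of promoters. GC content was 64.8% for PBX2, 75.6% for PBX3, 52.4% for NR2F1 and 57.6% for MEIS3, against a median of 62.8%. The PBX3 window lies inside the GENCODE PBX3 gene, and 18 of its bases fall in GENCODE exons on the same strand. The MEIS3 window starts from a RefSeq start site that lies upstream of the GENCODE gene.

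The motifs searched on both strands were the SOX cores ACAATG (held by 6.57% of promoters) and ACAAAG (10.7%), the MEIS and PKNOX core TGACAG (11.8%), the PBX and HOX core TGATTGAT (0.397%), the nuclear receptor site AGGTCA (9.93%) and the CCAAT box CCAAT (34.6%). No match overlapped another. PBX3 held 1 TGACAG core, as its reverse complement, and NR2F1 held 1 CCAAT box. PBX2 and MEIS3 held no match to any of them. Among the windows not shown, MEIS1 held 1 ACAATG core and 1 CCAAT box, and those of NR2F2 and MEIS2 held none and lay wholly within GENCODE exons. A match is a description of the letters and not a binding site.

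The question put to the 8 genes was whether their new RNA (T>C reads) or their RNA pool (total reads) changed after SOX9 was lost. All 3 times entered 1 DESeq2 fit per table, and calls were made below 0.1 after Benjamini-Hochberg adjustment over all genes tested. Of the 8 members, 7 passed the filter of 1 CPM in at least 3 samples in both tables, and MEIS1 did not. In T>C reads 0 of the 7 were called at 3h, where 1.79% of 12037 genes were, and 0 of 7 at 24h, where 4.98% were. At an unadjusted p under 0.05 the numbers were 1 (NR2F1) and 2 (NR2F2 and PBX2), and edgeR's quasi-likelihood test called 0 at 3h and 1 (PBX2) at 24h. In total reads 0 of 7 were called at 3h (1.89% of 11710 genes; 1 at an unadjusted p under 0.05 and 0 by edgeR) and 1 of 7 at 24h (15.0%). The contrast of 24h against 3h gave 0 of 7 in T>C reads (1.14% of genes called) and 0 of 7 in total reads (5.39%), with 1 and 2 members at an unadjusted p under 0.05 and 0 by edgeR in either table. By direction, the genes called in T>C reads were 1.01% higher and 0.789% lower at 3h, 2.38% and 2.59% at 24h and 0.540% and 0.598% at 24h against 3h. In total reads they were 1.11% higher and 0.777% lower, 7.11% and 7.85%, and 2.51% and 2.88% in the same order of contrasts.

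In size the members lay near or below the typical gene. The median absolute log2 fold change of the 7 in T>C reads was 0.13 at 3h, against 0.15 over all genes tested, and 0.04 at 24h, against 0.20. In total reads it was 0.09 at 3h and 0.16 at 24h, the same as the values over all genes. Fitted log2 fold changes in T>C reads ran from -0.17 (NR2F1) to 0.16 (MEIS2) at 3h and from -0.01 (NR2F6 and PBX3) to 0.47 (PBX2) at 24h. The contrasts of 3h and 24h share the 0h samples, so the values at the 2 times are not independent.

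**Figure D1:**
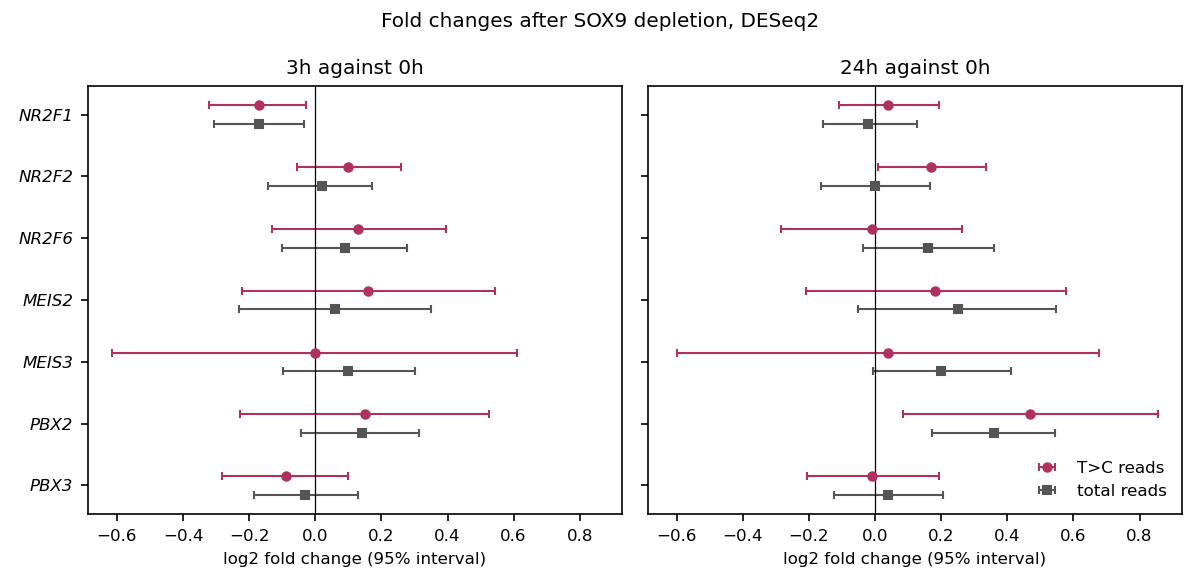
Log2 fold change of each of the 7 tested members (horizontal axis, with 95% interval) at 3h and at 24h against 0h, for T>C reads (circles) and total reads (squares), from DESeq2. PBX2 at 24h stands furthest to the right in both tables, NR2F1 at 3h lies left of 0 in both, and the widest intervals belong to the T>C reads of MEIS3.

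NR2F1 (chr5:93583222-93594611 on hg38, plus strand) had 5637 to 11287 raw T>C reads a sample. Its normalized T>C reads in S9CC13_R6, S9CC47_R5 and S9CC47_R6 were 8205, 9040 and 8164 at 0h, 7458, 8744 and 6627 at 3h and 8308, 8995 and 8362 at 24h. Every culture was lower at 3h than at 0h, by 0.14, 0.05 and 0.30 on the log2 scale in the same order, although the groups overlapped, and every culture was higher at 24h than at 3h. The fitted log2 fold change at 3h was -0.17 (SE 0.0745, DESeq2 adjusted p = 0.469). By 24h the value was 0.04 (SE 0.0776, adjusted p = 0.900). Total reads were also lower at 3h in every culture, with 23261, 23805 and 22719 normalized reads at 0h, 21214, 23216 and 18544 at 3h and 21864, 23625 and 21944 at 24h. Their log2 fold change was -0.17 at 3h (SE 0.0700, adjusted p = 0.350), with -0.02 at 24h (SE 0.0730, adjusted p = 0.924), and the 3h value was -0.05 without S9CC47_R6.

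The lower 3h level of NR2F1 in T>C reads crossed the threshold where the libraries were scaled by size factors from total reads in place of T>C reads. The NR2F1 log2 fold change was then -0.25 at 3h (DESeq2 adjusted p = 0.0537) and 0.30 at 24h against 3h (adjusted p = 0.0621), where the fit with T>C size factors had 0.22 (SE 0.0838, adjusted p = 0.317). That scaling shifted the median over all genes tested by about as much as NR2F1, to -0.08 at 3h and 0.08 at 24h against 3h. The 95% interval of the NR2F1 change in T>C reads at 24h against 0h ran from -7.35% to 14.4%.

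NR2F2 (chr15:96325938-96340263, plus strand) was the receptor whose T>C reads lay higher after depletion. They were 2884, 3004 and 2767 at 0h, 3085, 3140 and 3008 at 3h and 3042, 3307 and 3488 at 24h. Each sample at 3h and at 24h was above every 0h sample, and each culture was higher at both times than at 0h. Groups that do not overlap were found for 11.3% of all genes tested at 3h and 22.5% at 24h. Neither difference was called by DESeq2. At 3h the fitted rise was 0.10 on the log2 scale, close to its SE of 0.0799 (adjusted p = 0.938). The 24h rise of 0.17 was larger against its SE of 0.0832, with a 95% interval of 0.00923 to 0.335. Its unadjusted p of 0.0384 became 0.324 after adjustment over all genes tested. Total reads were 10733, 9516 and 11195 at 0h, 10825, 10973 and 10182 at 3h and 9811, 10692 and 10505 at 24h. These groups overlapped, and the 24h log2 fold change was 0.00 (SE 0.0838, adjusted p = 0.997).

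NR2F6 (chr19:17231883-17245919, minus strand) differed more between cultures than between times. Its T>C reads were 493.9, 500.6 and 431.9 at 0h, 591.4, 672.2 and 397.9 at 3h and 366.9, 544.1 and 409.0 at 24h. At 3h they were higher than at 0h in both S9CC13_R6 and S9CC47_R5 and lower in S9CC47_R6, and the groups overlapped at both times. The log2 fold changes were 0.13 at 3h (SE 0.134, adjusted p = 0.986), with -0.01 at 24h (SE 0.139, adjusted p = 0.989). Total reads ranged from 2209 to 3421, with a log2 fold change of 0.16 at 24h (SE 0.101, adjusted p = 0.336). That value was 0.49, 0.11 and 0.31 without S9CC13_R6, S9CC47_R5 and S9CC47_R6 in turn and 0.08 with the culture as a block. It was called in none of these fits. Within the single cultures, in the same order, total reads changed by 0.00, 0.32 and -0.05 on the log2 scale.

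**Figure D2:**
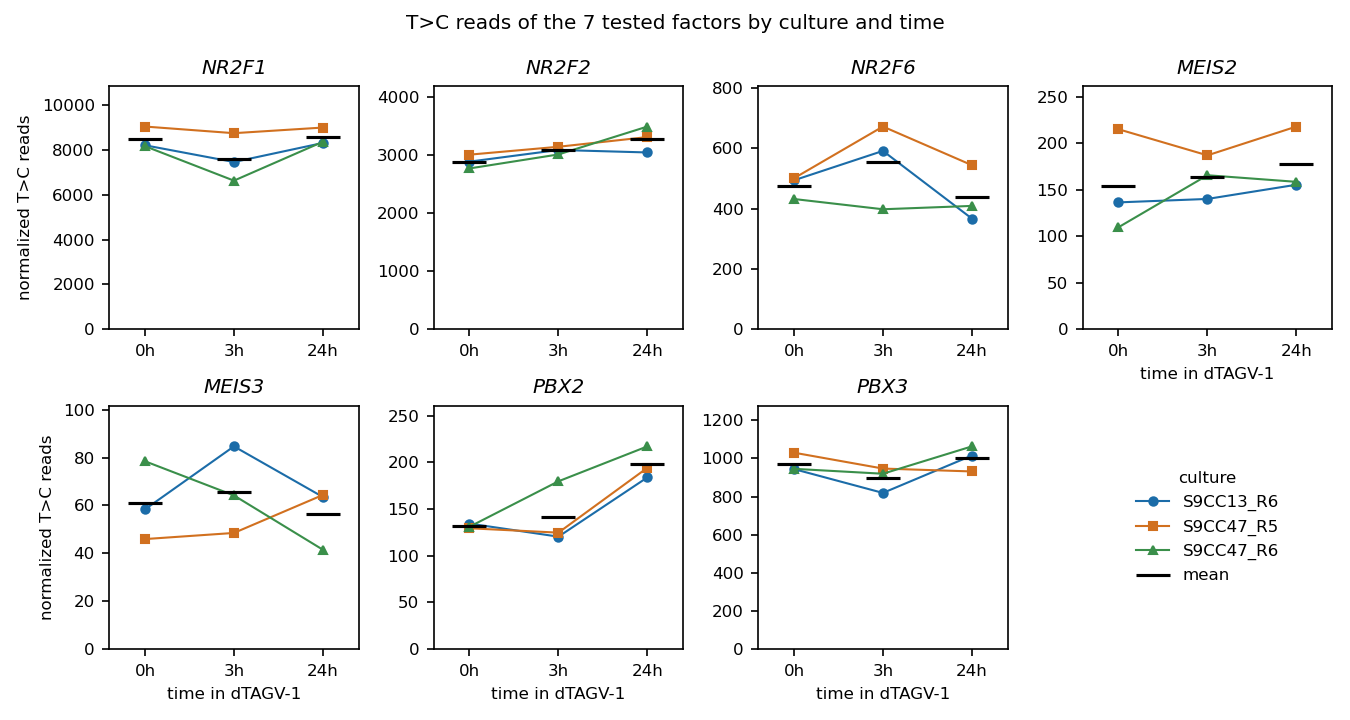
Normalized T>C reads (vertical axis, starting at 0, 1 scale for each gene) of the 7 tested members at 0h, 3h and 24h, with a line for each culture and a bar at the mean of 3. PBX2 is the panel in which all 3 cultures end above every earlier sample, and in the NR2F6 and MEIS2 panels S9CC47_R5 lies above the other cultures throughout.

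The 3 MEIS genes differed in how well they were measured. MEIS1 (chr2:66433452-66573869, plus strand) was at the edge of detection, with raw total counts of 3, 1 and 3 at 0h, 8, 5 and 5 at 3h and 3, 3 and 5 at 24h. The 3h counts lay above the 0h counts, and groups that do not overlap in total reads were found for 8.44% of tested genes at 3h. Its raw T>C counts were 2, 0 and 1 at 0h, 0, 1 and 1 at 3h and 1, 0 and 4 at 24h. A count of 0 allows up to 3 counts in a library, so no fold is given for MEIS1.

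MEIS2 (chr15:36889204-37101299, minus strand) had 106 to 216 raw T>C reads a sample. Its normalized T>C reads were 136.5, 215.2 and 109.7 at 0h, 140.2, 187.1 and 165.7 at 3h and 155.5, 218.1 and 158.6 at 24h. All cultures ended higher at 24h than they began, by 0.19, 0.02 and 0.53 on the log2 scale, but the groups overlapped because S9CC47_R5 started as high as it ended. The log2 fold changes of T>C reads were 0.16 at 3h (SE 0.195, adjusted p = 0.991), with 0.18 at 24h (SE 0.201, adjusted p = 0.796). Total reads were 328.1, 421.1 and 268.8 at 0h, 312.5, 393.3 and 331.0 at 3h and 314.9, 522.1 and 404.6 at 24h. The total log2 fold change at 24h was 0.25 (SE 0.153, adjusted p = 0.332), with 2 of 3 cultures higher.

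MEIS3 (chr19:47403124-47419527, minus strand) had few labelled reads next to its total. T>C reads were 58.35, 45.95 and 78.46 at 0h, 84.67, 48.51 and 64.18 at 3h and 63.53, 64.38 and 41.49 at 24h. No culture order held from one time to the next, and the log2 fold changes had wide errors, -0.00 at 3h (SE 0.312, adjusted p = 1.00), with 0.04 at 24h (SE 0.326, adjusted p = 0.980). The total reads, with smaller error, were 886.3, 902.6 and 1034 at 0h, 1140, 1005 and 961.2 at 3h and 1137, 1026 and 954.7 at 24h. Both S9CC13_R6 and S9CC47_R5 were higher at 24h than at 0h and S9CC47_R6 was lower, and the total log2 fold change was 0.20 (SE 0.107, adjusted p = 0.229).

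PBX2 (chr6:32184733-32190202, minus strand), a partner of MEIS and HOX proteins on DNA, was the 1 member called. Its normalized total reads were 1207, 1390 and 1370 at 0h, 1067, 1237 and 1887 at 3h and 1802, 1728 and 2307 at 24h. The 24h samples were all above the 0h samples, as held for 28.7% of genes (either direction), and the 3h sample of S9CC47_R6 was already at the level of 24h. The log2 fold change at 24h was 0.36 (SE 0.0943, DESeq2 adjusted p = 0.00321, higher in 3 of 3 cultures), a 1.28-fold rise in this fit. Without the surrogate variable it was larger, 0.55 (SE 0.191, DESeq2 adjusted p = 0.0529). Within single cultures the log2 change of normalized total reads was 0.58, 0.31 and 0.75, each measured against that culture at 0h. At 3h the total log2 fold change was 0.14 (SE 0.0908, adjusted p = 0.841).

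PBX2 T>C reads, from 91 to 293 raw counts a sample, took the same course. They were 134.4, 129.4 and 131.0 at 0h, 120.4, 124.7 and 179.7 at 3h and 183.9, 194.2 and 217.1 at 24h. The 3 values at 0h were within a few reads of each other, and the 24h samples lay above every sample of 0h and of 3h (18.2% of genes had no overlap between 24h and 3h). The log2 fold change was 0.15 at 3h (SE 0.192, adjusted p = 0.991), with 0.47 at 24h (SE 0.196, adjusted p = 0.207), which did not pass the threshold. It was called with the culture as a block (0.59, adjusted p = 0.0665), without the surrogate variable (0.59, adjusted p = 0.0839) and by edgeR (0.60, adjusted p = 0.0974).

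How firmly PBX2 is called depends on the model. The total-read rise at 24h was 0.55 and not called by edgeR (adjusted p = 0.136), and was 0.17, 0.25 and 0.38 with adjusted p = 1.00, 0.425 and 1.00 without S9CC13_R6, S9CC47_R5 and S9CC47_R6 in turn. Over all genes tested, the share called went from 15.0% to 1.33%, 6.22% and 0.484% with those cultures left out in turn. With the culture as a block the PBX2 rise was 0.54 (adjusted p = 0.00212). Against 3h, PBX2 total reads at 24h differed by 0.22 (SE 0.100, adjusted p = 0.247), with overlap between the groups (21.5% of genes had none). That difference was 0.50 with the culture as a block (adjusted p = 0.00807), 0.30 without a filter on low counts (adjusted p = 0.0466) and 0.62 without S9CC47_R6 (adjusted p = 0.0706), and was called in each. A lncRNA on the same strand, ENSG00000273333, overlaps the last exon of PBX2. Of the 226 overlapping 25-base stretches in the last 250 bases of the canonical PBX2 transcript, 83 also occur in that lncRNA, which the tables do not list as a gene, so reads from either cannot be told apart there. For the other 7 members no such stretch occurred in a transcript of another gene.

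PBX3 (chr9:125747345-125967377, plus strand) had values at 24h close to those at 0h. Its T>C reads were 944.0, 1030 and 945.3 at 0h, 818.9, 946.7 and 919.5 at 3h and 1015, 931.5 and 1063 at 24h. Each culture was a little lower at 3h, by 0.20, 0.12 and 0.04 on the log2 scale, and the 24h samples spanned the 0h range. The log2 fold changes were -0.09 at 3h (SE 0.0977, adjusted p = 0.991), with -0.01 at 24h (SE 0.101, adjusted p = 0.991). By the 95% interval, the change of PBX3 T>C reads at 24h lay between -13.3% and 14.3%. Total reads ranged from 2203 to 2967, with a log2 fold change of 0.04 at 24h (SE 0.0839, adjusted p = 0.831).

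The share of a gene's reads that carry a T>C conversion set the members apart from each other. It reflects how much of the RNA pool was made during labelling, but also the base content of the counted sequence, as described below. At 0h MEIS2 had the highest share, 45.4% ± 7.74 (SD, n = 3), above 80.7% of 11561 genes tested in both tables. PBX3 followed with 38.1% ± 1.48 and NR2F1 with 37.0% ± 3.10, above 70.2% and 68.0% of genes. The order of these 3 was within their spread. NR2F2 (28.2% ± 4.60) lay at the median gene, which was at 26.1% to 28.3% in the 0h libraries, and NR2F6 (19.0% ± 2.10) lay below it.

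PBX2 and MEIS3 were at the other end. The PBX2 share at 0h was 10.1% ± 0.572, above 8.65% of genes, and the MEIS3 share was 6.50% ± 1.16, above 2.68%. The highest share of either in any of the 9 samples, 12.1% for PBX2 and 7.72% for MEIS3, was below the lowest share of NR2F6, 14.8%. Within the PBX pair, the lowest share of PBX3, 31.1%, was above every share of PBX2.

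**Figure D3:**
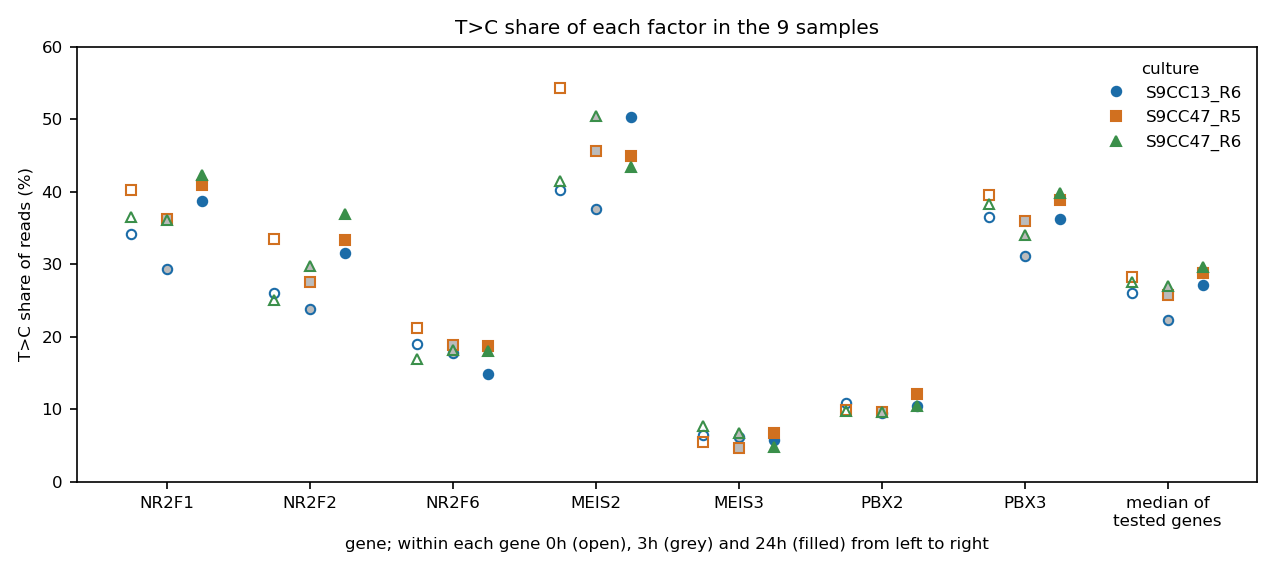
T>C share of reads in percent (vertical axis) for each tested member and for the median tested gene, in the 9 samples. Within a gene, 0h (open), 3h (grey) and 24h (filled) run from left to right, with marker shape and colour for the culture. MEIS3 and PBX2 lie at the bottom with little spread, MEIS2 at the top with the widest.

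Reads can carry a T>C conversion only where the counted sequence has T, so base content moves with the share. T made up 25.2% of the last 250 bases of the canonical PBX2 transcript and 23.6% for MEIS3, against a median of 32.0%, and 39.2% for PBX3. NR2F2 was richer still, at 41.6%, with a share near the median, and MEIS2 had 30.4% with the highest share. NR2F1 had 36.4%. NR2F6 had the lowest T content of the members, 20.8%, with a share of 19.0% that lay above those of PBX2 and MEIS3. Across 11323 genes of the 0h libraries the Spearman correlation of T content with T>C share was 0.371 (Pearson 0.360), a description over genes that share libraries. The part of T content in the differences between members was not tested, and the intervals counted by the authors may not be these last bases.

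**Figure D4:**
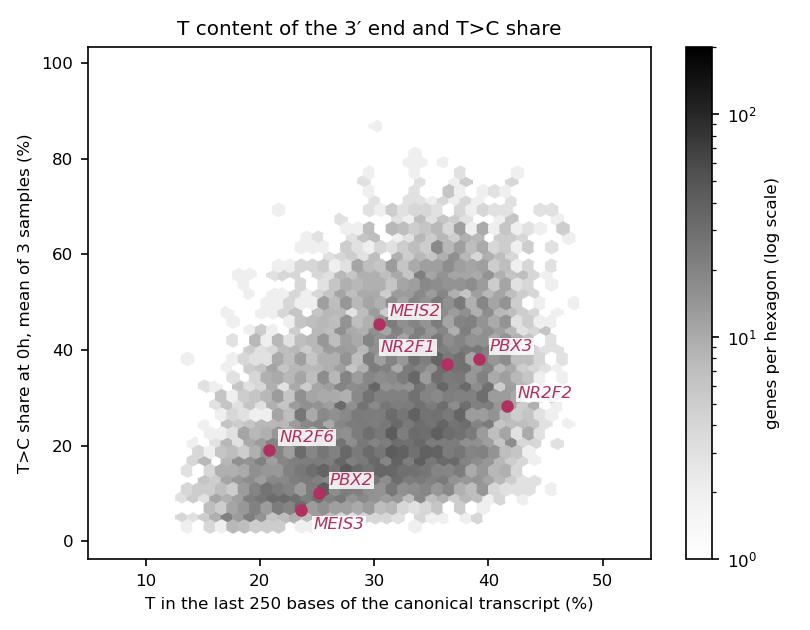
T in the last 250 bases of the canonical transcript (horizontal axis, percent) against T>C share at 0h (vertical axis, mean of 3 samples, percent). Hexagons give the number of genes on a log scale, and red points are the 7 tested members. PBX2 and MEIS3 lie low on both axes, and MEIS2 lies high for its T content. NR2F6 has the lowest T content and a share above those of PBX2 and MEIS3.

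No share comparison over time could be called, since the exact test of 3 samples against 3 cannot give a p under 0.1. For PBX3 the share was 36.6%, 39.6% and 38.3% at 0h and 31.1%, 36.0% and 34.1% at 3h, a mean difference of -4.40 percentage points ± 0.993 (SD of the differences within cultures), with no overlap between the groups. For 14.0% of the 11561 genes the shares at 3h and 0h did not overlap, and for 12.6% all 3h samples were the lower ones. The PBX3 share was 36.2%, 38.9% and 39.8% at 24h. PBX2 also had no overlap at 3h, at 9.45% to 9.68% against 9.73% to 10.8%. The exact two-sided permutation test gave p = 0.1 for both, the smallest that 3 samples against 3 allow, and p = 0.7 after adjustment over 14 comparisons. The median tested gene was lower at 3h as well, at 22.3% to 27.0% against 26.1% to 28.3%, and after subtraction of each library's own share PBX2 differed by 0.739 points and PBX3 by -3.11 points. After that subtraction PBX3 still had no overlap at 3h, as had 12.1% of genes, and PBX2 overlapped. NR2F1 was higher at 24h than at 0h in all 3 cultures, by 3.65 points ± 2.65 (exact permutation p = 0.2, adjusted p = 0.778), or 2.29 points after subtraction of the library share. The median gene was also higher at 24h in every culture. At 3h the NR2F1 share was lower in all 3 cultures, with a mean difference of -3.12 points ± 2.31 (-1.83 after subtraction), and so was that of MEIS3, with -0.638 ± 0.428 (0.653 after subtraction). The exact test compares 3 samples with 3 and does not use the pairing by culture. The 11 comparisons other than PBX2 and PBX3 at 3h and NR2F1 at 24h had exact permutation p-values of 0.3 to 1. At 24h no member's shares were free of overlap, against 12.0% of genes, nor after subtraction, against 13.6%.

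Some members also differed between cultures. In the fit with the culture as a block, T>C reads in S9CC47_R5 were above those in S9CC47_R6 by 0.53 for MEIS2 (SE 0.203) and 0.46 for NR2F6 (SE 0.156) on the log2 scale, differences that 12.6% and 15.7% of genes reached. These cultures share a clone and differ in differentiation batch. PBX2 total reads in S9CC13_R6 and in S9CC47_R5 were below those in S9CC47_R6, by log2 -0.46 (SE 0.137) and -0.34 (SE 0.137). For NR2F2 and PBX3 no culture difference in T>C reads exceeded 0.08. A culture is 1 differentiation of 1 clone, so these are descriptions with no test.

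The 9-sample pattern of each member's T>C reads was set against 8675 genes whose T>C reads averaged 50 or more after normalization, and the 2 genes with the highest Pearson r were taken. For PBX2 these were TWSG1 (r = 0.980), a secreted regulator of BMP signals, and ADD3 (0.972), a cytoskeletal adducin. For PBX3 they were EIF2S1 (0.983) and UNK (0.979), for NR2F1 GYG1 (0.950) and ZNF891 (0.934), and for NR2F2 OAZ1 (0.950) and CD164 (0.936). NR2F6 was nearest to CHST10 (0.954) and CCDC8 (0.942), MEIS2 to ANKRD28 (0.897) and NANP (0.879), and MEIS3 to SPATA33 (0.953) and TASP1 (0.934). Within the members, r between pairs ran from -0.781 (MEIS3 and PBX3) to 0.639 (NR2F2 and PBX2). These values describe 9 samples from 3 cultures.

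Some relatives and partners of the 8 factors changed at 24h. Of a list of 27 genes (other TALE homeodomain factors, other NR2 receptors and their RXR partners, and cofactors), 21 were tested. At 3h 0 were called in either table, where 1.79% of all genes were called in T>C reads and 1.89% in total reads. At an unadjusted p under 0.05 (DESeq2) there were 4 in T>C reads and 3 in total reads. At 24h, 2 were higher and 2 lower in T>C reads, where 4.98% of all genes were called. In total reads 2 were higher and 3 lower, where 15.0% of all genes were called. The 4 called in T>C reads were called in the same direction in total reads. The median log2 fold change over the list was 0.04 in T>C reads, against 0.00 over all genes.

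PKNOX2, a TALE factor that pairs with PBX proteins as MEIS factors do, was the list member lowest relative to its error. Its T>C reads were 405.3, 324.1 and 397.6 at 0h, 391.6, 335.2 and 264.9 at 3h and 165.0, 182.8 and 132.6 at 24h, so that every 24h sample was below every earlier one. The log2 fold change at 24h was -1.08 (SE 0.156, DESeq2 adjusted p = 1.41e-09), and in total reads it was -1.10 (SE 0.114, adjusted p = 1.55e-19). IRX3, a TALE factor of the Iroquois group, fell from 3437, 2662 and 3302 to 2510, 2163 and 2598 T>C reads. Its log2 fold change was -0.38 (SE 0.0905, adjusted p = 0.00158) in T>C reads and -0.32 (SE 0.0812, adjusted p = 0.00215) in total reads.

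BCL11A, a zinc finger repressor that binds NR2F receptors, rose. Its T>C reads were 271.9, 389.4 and 232.3 at 0h, 346.6, 554.4 and 257.9 at 3h and 597.3, 712.4 and 496.4 at 24h, with a log2 fold change of 1.13 at 24h (SE 0.153, adjusted p = 6.41e-11) and 1.00 in total reads (SE 0.126, adjusted p = 3.22e-13). ZFPM2, a cofactor of GATA factors that also binds NR2F2, was called from few reads, a mean of 6.70 at 0h and 20.0 at 24h, at 1.98 (SE 0.694, adjusted p = 0.0899), and it was not called by edgeR (1.63, adjusted p = 0.169), with the culture as a block (1.70, adjusted p = 0.126), without the surrogate variable (adjusted p = 0.155) or without a filter on low counts (adjusted p = 0.133). Calls of these relatives were lost in some fits with a culture left out, as were most calls over all genes. In T>C reads at 24h the share of genes called went from 4.98% to 0.459%, 2.14% and 0.586% without S9CC13_R6, S9CC47_R5 and S9CC47_R6 in turn. In total reads it went from 15.0% to 1.33%, 6.22% and 0.484% in the same order. Without S9CC13_R6, PKNOX2 (-0.86), IRX3 (-0.25) and BCL11A (1.02) kept their signs in T>C reads and were not called by DESeq2 (adjusted p = 0.915, 1.00 and 0.125), and IRX3 (-0.16) and BCL11A (0.83) were not called in total reads (adjusted p = 1.00 and 0.149). Without S9CC47_R6, IRX3 was not called in T>C reads (-0.38, adjusted p = 1.00), nor were PKNOX2 (-0.97, adjusted p = 0.102), IRX3 (-0.22, adjusted p = 1.00) and BCL11A (0.87, adjusted p = 0.365) in total reads. ZFPM2 lost its call with any culture left out. The other tested relatives were not called in T>C reads at 24h.

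**Figure D5:**
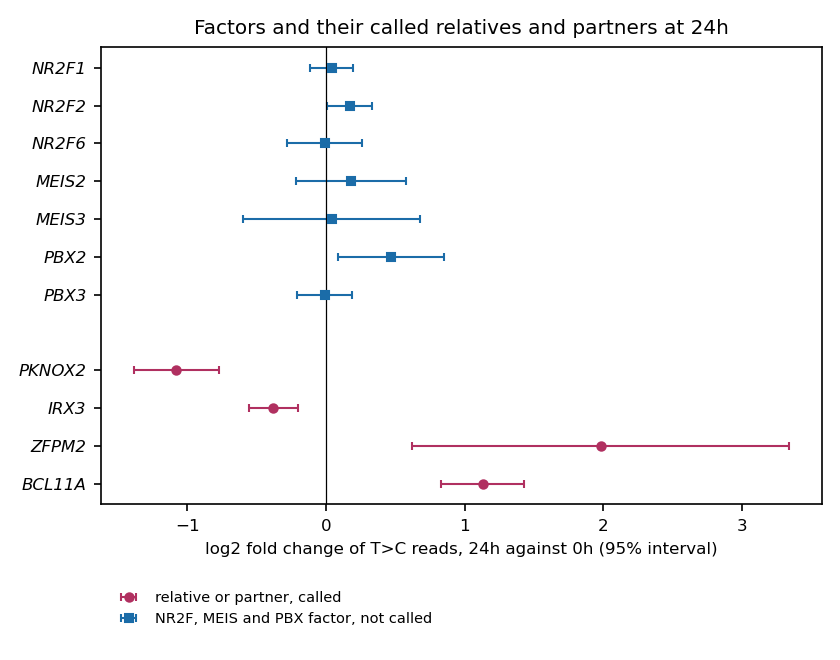
Log2 fold change of T>C reads at 24h against 0h (horizontal axis, with 95% interval) for the 7 tested members (squares) and the 4 relatives and partners called in T>C reads (circles). Of the members PBX2 is furthest from 0, at 0.47, while PKNOX2 and IRX3 lie to the left and BCL11A and ZFPM2 to the right.

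HOX genes, whose proteins form complexes with PBX and MEIS on DNA, were near the limit of detection. Of 12 anterior HOX genes none passed the filter, 5 had no total read in any sample, and together they came to at most 0.590 CPM in a sample. The 27 relatives and partners, by contrast, summed to between 1108 and 1262 CPM.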

How the data were processed

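The authors deposited 2 tables of raw counts by gene symbol, for all reads and for reads with a T>C conversion, and all 9 columns of each were used. They trimmed adapters and poly(A) from the first read and mapped and counted it with slamdunk. The processing notes of the submitters name hg38, and whether counting used strand is not given in the sources used here. Symbols were matched to GENCODE release 44 on hg38 (18451 of 18970 directly), and coordinates are those of that annotation.

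DESeq2 1.42.0 (R 4.3.3) fitted all 9 samples with differentiation batch, 1 surrogate variable (svaseq, sva 3.50.0) and time, on protein-coding genes that reached 1 CPM in 3 or more samples (12037 for T>C and 11710 for total reads), independent filtering off. Genes were called at a Benjamini-Hochberg adjusted p under 0.1 (Wald test), and p-values measure only the spread between these samples. The scripts were tested on simulated data. T>C shares were compared by exact permutation.

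The alternatives were edgeR 4.0.16 (quasi-likelihood, TMM), TMM factors in DESeq2, no filter, no surrogate variable, size factors from total reads, each culture left out and the culture as a replicate block. Unconverted reads (total minus T>C) were added after seeing the data. Cultures pair samples across times, as their clone and batch names in the titles show, and deviations of same-culture samples from group means correlated at 0.131 on average in T>C reads (0.0169 to 0.286, 9 pairs) and 0.273 in total reads (-0.0566 to 0.606). All members were named, of the relatives and HOX lists those called in any fit (some results of these lists are not reported here), and for likeness the 2 best correlated genes. The members and lists were chosen with earlier results of these data known. A count of 0 was read as up to 3 counts.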

Additional observations from a re-analysis of the deposited data

How the results depend on the processing

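Of the 288 recomputed log2 fold changes of members, 238 kept their direction and their side of the threshold, 8 passed it anew, 4 no longer passed and 38 turned sign, all 38 in values that were not called in either setting. The number of members called in T>C reads was 0 at each contrast and became 1 at 3h and at 24h against 3h with size factors from total reads (NR2F1), and 1 at 24h with edgeR, without the surrogate variable and with the culture as a replicate block (PBX2). In total reads, the 1 call at 24h (PBX2) was 0 with edgeR and 0 to 0 with each culture left out, and was 1 in unconverted reads, chosen after seeing the data. At 24h against 3h the 0 calls became 1 without a filter and with the replicate block, and 0 to 1 with each culture left out. The replicate block changed no other call of a member. Groups of T>C shares did not overlap in 2 of 14 comparisons, in 1 after subtraction of the library share (at 3h 14.0% and 12.1% of genes had no overlap), and in 4 to 6 with 1 culture left out, where 2 samples meet 2.

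Sign changes in T>C reads at 3h were those of MEIS3 (-0.00, against 0.09 with edgeR, 0.00 with TMM in DESeq2, 0.00 without a filter, 0.09 without the surrogate variable, 0.08 with the block and -0.04 to 0.63 with a culture left out), and with a culture left out MEIS2 (-0.00 to 0.32) and PBX2 (-0.13 to 0.19). At 24h they were MEIS3 (0.04, against -0.10 with edgeR and without the surrogate variable, -0.12 with the block and -0.18 to 0.31), PBX3 (-0.01, against 0.05 with edgeR, without the surrogate variable and with the block, 0.00 without a filter and -0.08 to 0.07), NR2F6 (0.00 with size factors from total reads, -0.15 to 0.21) and MEIS2 (-0.04 to 0.29). In total reads at 3h they were NR2F2 (-0.02 in unconverted reads, -0.06 to 0.23), PBX3 (0.02 in unconverted reads), NR2F6 (-0.04 to 0.45), MEIS2 (-0.00 to 0.12) and PBX2 (-0.24 to 0.16). At 24h they were NR2F2 (0.00, against -0.02 with edgeR, without the surrogate variable and with the block, -0.00 with TMM in DESeq2, -0.01 without a filter, -0.07 in unconverted reads and -0.10 to 0.25), NR2F1 (-0.01 to 0.06) and PBX3 (-0.14 to 0.09). The cause of these changes was not tested. Counts over all genes also moved. With a culture left out, calls in T>C reads were 5 to 91 (216 with all) at 3h, 54 to 251 (599) at 24h and 4 to 30 (137) at 24h against 3h, and in total reads 12 to 152 (221), 56 to 719 (1751) and 93 to 191 (631). With edgeR the T>C calls were 109 at 3h and 255 at 24h against 3h, and the total-read calls 54, 933 and 397. At 24h against 3h there were 530 T>C and 1544 total-read calls with the replicate block, and 373 T>C calls without the surrogate variable. For total reads at 3h there were 118 without the surrogate variable, 141 with the block and 127 in unconverted reads. Size factors from total reads turned the T>C split from 121 higher and 95 lower to 84 and 147 at 3h, and from 65 and 72 to 89 and 41 at 24h against 3h. Depth limits MEIS3 and PBX2 in T>C reads, with 38 and 91 raw reads in their lowest samples, and MEIS1 in both tables.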
